A study of Mus musculus with 20 samples.

Results

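The p53 genes described here are Cdkn1a, Ccng1, Plk2, Mdm2, Bax, Bbc3, Trp53inp1, Phlda3 and Eda2r, which are targets of the transcription factor p53, and Trp53, which encodes p53 itself. They were taken by symbol from the deposited expression table, where 10 of its 45700 genes carry these names. All 10 had a mean of at least 1 FPKM (fragments mapped to a gene, scaled by its transcript length and by the size of the library) over the libraries and so were among the 15247 genes tested. The brains came from "Taiwanese" SMA mice (Smn-/-; SMN2tg/0), a severe model of spinal muscular atrophy that lacks mouse Smn and carries a human SMN2 transgene, and from phenotypically normal littermates (Smn-/+; SMN2tg/0). Both genotypes were on a congenic FVB background and carried the transgene, so the controls were heterozygous carriers and not wild-type mice. Tissue was taken at the early-symptomatic stage, postnatal day 5, with 2 replicates per genotype, and at the late-symptomatic stage, postnatal day 7, with 3 replicates per genotype. From each replicate number there was 1 library of total cytoplasmic RNA (RNA-seq, all fractions of the sucrose gradient pooled) and 1 of polysomal RNA (POL-seq, only the fractions with polysomes), which gives 20 libraries. No labels give the sex of the mice. Ddx3y on the Y chromosome was between 17.45 and 27.77 FPKM in some libraries and at most 0.50 FPKM in the others, and on this measure both day 5 controls were male, 1 of the 2 day 5 SMA numbers was female, 2 of the 3 day 7 controls were female and 1 of the 3 day 7 SMA numbers was female. Smn1 itself was between 8.61 and 17.49 FPKM over all libraries and its levels overlapped between genotypes, so this whole-gene value does not check the labels.

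p53 is held at a low level in unstressed cells by MDM2, an E3 ubiquitin ligase whose gene is itself a p53 target. DNA damage, nucleolar stress with free ribosomal proteins, and other insults stabilise p53, which then binds pairs of half-sites in the DNA near its targets and activates them. Some targets stop the cell cycle or feed back on p53. Cdkn1a encodes p21, an inhibitor of cyclin-dependent kinases, Ccng1 encodes cyclin G1, Plk2 encodes a polo-like kinase and Mdm2 the ligase. Others act on cell death or survival. Bax encodes a pore-forming protein of the outer mitochondrial membrane, Bbc3 encodes PUMA, a BH3-only protein, Trp53inp1 a nuclear cofactor of p53, Phlda3 an inhibitor of AKT signalling and Eda2r a receptor of the TNF receptor family. In nervous tissue the pathway is known for the loss of neurons during development and in disease.

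The promoters of the members differed in whether they held the p53 half-site, a 10-base consensus that reads the same on both strands. RefSeq promoter windows of 300 bases, from 250 before to 50 after a transcript's start on GRCm38.p6, were found for 9 of the 10 members, 12 windows in all, and not for Trp53inp1. A half-site occurred in 5 of these 12 windows, and in 2745 of all 32851 windows, or 8.36%. A pair of exact half-sites with at most 13 bases between them, the widest spacing searched, occurred in 24 of all windows, or 0.0731%, and 1 of the 24 belonged to Cdkn1a. The window of the upstream Cdkn1a start is shown with its half-sites in capitals because Cdkn1a is the member that differed between genotypes in all 4 comparisons. The window of Eda2r, the member with the largest fold change, is shown beside it and holds no half-site.
Cdkn1a, chr17:29090729-29091028, plus strand: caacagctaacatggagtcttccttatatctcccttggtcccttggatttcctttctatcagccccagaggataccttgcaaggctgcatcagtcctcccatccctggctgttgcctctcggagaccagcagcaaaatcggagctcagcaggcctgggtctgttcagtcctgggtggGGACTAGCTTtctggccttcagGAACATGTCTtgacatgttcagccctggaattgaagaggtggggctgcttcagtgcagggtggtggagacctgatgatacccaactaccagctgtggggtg
Eda2r, chrX:97377160-97377459, minus strand: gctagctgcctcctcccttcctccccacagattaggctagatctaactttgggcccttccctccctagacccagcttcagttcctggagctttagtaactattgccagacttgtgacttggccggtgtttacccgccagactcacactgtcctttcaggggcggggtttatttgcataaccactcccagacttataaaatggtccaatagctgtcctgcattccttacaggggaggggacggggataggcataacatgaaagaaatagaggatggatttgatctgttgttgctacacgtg
The half-sites of Cdkn1a began 73 and 51 bases before the start and were 12 bases apart. The window of a second Cdkn1a start, chr17:29093519-29093818, held none. Bax, Mdm2, Ccng1 and Trp53 had a single half-site each, shown here for comparison with those of Cdkn1a.
Cdkn1a, chr17:29090906-29090915, plus strand: GGACTAGCTT
Cdkn1a, chr17:29090928-29090937, plus strand: GAACATGTCT
Mdm2, chr10:117710935-117710944, minus strand: GAACTTGCCT
Ccng1, chr11:40755462-40755471, minus strand: GGGCAAGCCT
Bax, chr7:45467090-45467099, minus strand: AGGCAAGCTT
Trp53, chr11:69580284-69580293, plus strand: GGACTTGCCC
No match was found in the windows of Plk2, Phlda3, Eda2r or Bbc3, which says only that these letters are absent from these stretches. Only exact matches were marked, so a stretch that departs from the consensus by 1 base is left in small letters. This holds also for the bases directly after the second marked half-site of Cdkn1a, so the marked pair need not be the one p53 uses. A match is a description of the sequence, and binding of p53 was not measured.

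FPKM is a value per length, so levels can be compared between genes. Over all 20 libraries Plk2 had the highest mean level at 65.0 FPKM, followed by Bax at 53.1, Ccng1 at 23.4, Mdm2 at 20.3 and Cdkn1a at 15.6 FPKM. Trp53inp1 at 9.67, Bbc3 at 8.98, Phlda3 at 8.51 and Trp53 at 7.23 FPKM formed a lower group, and Eda2r was lowest at 1.43 FPKM. The ranges over libraries of Plk2 and Bax overlapped, as did those of Ccng1, Mdm2 and Cdkn1a and those of the 4 genes of the lower group. These ranges pool fractions, stages and genotypes, and within some groups neighbours were apart. In day 7 polysomal RNA Plk2 was at 57.15 to 71.21 and Bax at 41.56 to 52.98 FPKM over both genotypes, and in day 7 total RNA Ccng1 was at 27.95 to 32.37 and Mdm2 at 17.41 to 20.75 FPKM. Cdkn1a also overlapped with the lower group. The range of Eda2r, 0.42 to 3.23 FPKM, overlapped only with that of Trp53, 2.88 to 10.66 FPKM.

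**Figure D1:**
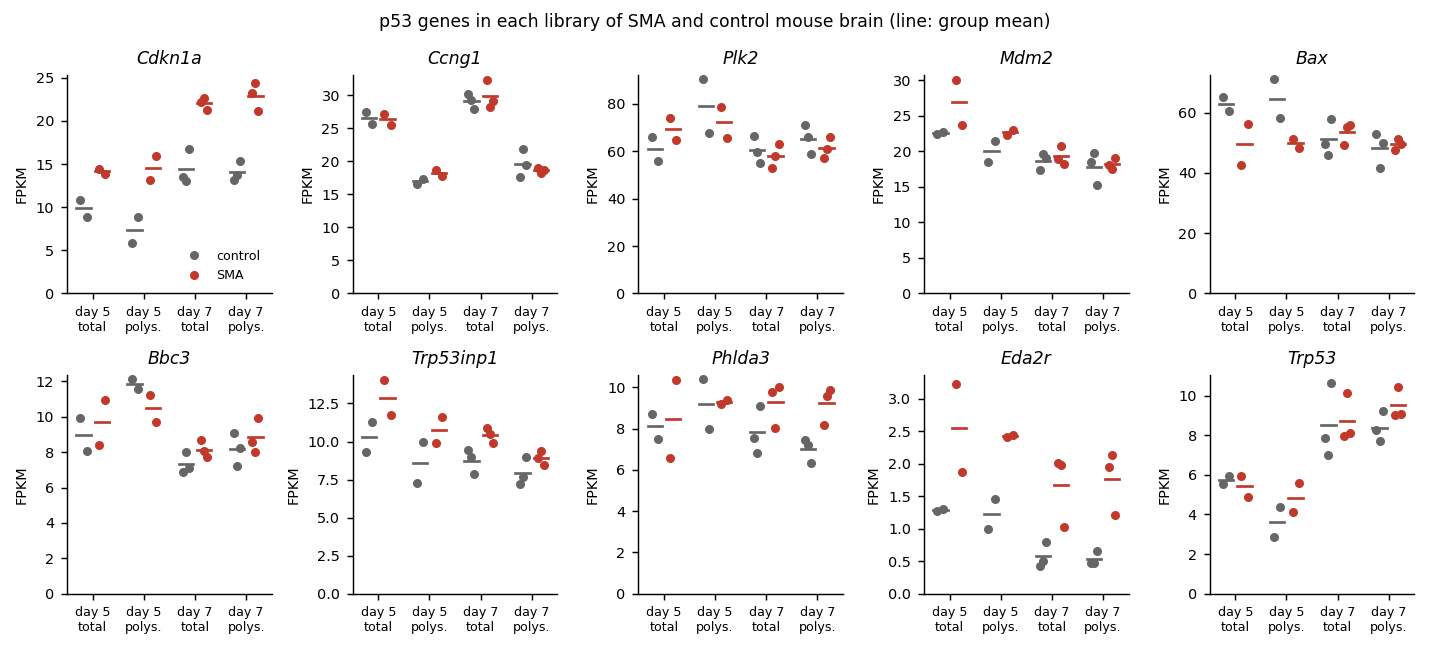
FPKM of the 10 p53 genes in each library, with 1 panel per gene, points for libraries, lines for group means, control in grey and SMA in red, for total and polysomal RNA at day 5 and day 7. The SMA points of Cdkn1a and Eda2r lie above all control points of the same stage and fraction, and those of the other genes overlap with control in at least 1 of the 4 comparisons.

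Cdkn1a (ENSMUSG00000023067.11, chromosome 17 of GRCm38, 29090979 to 29100722, plus strand) was higher in every SMA library than in any matched control (same age, same fraction). In day 5 total RNA it was at 10.84 and 8.89 FPKM in the controls, against 14.39 and 13.88 FPKM in SMA. In day 5 polysomal RNA it was at 5.85 and 8.86 FPKM in the controls, against 13.17 and 15.94 FPKM in SMA. The lowest SMA library of day 5 was thus above the highest control library of the same fraction, and the control polysomal libraries were the lowest of all 20. In day 7 total RNA the levels were 13.50, 12.99 and 16.75 FPKM in the controls, against 22.24, 22.67 and 21.30 FPKM in SMA. In day 7 polysomal RNA they were 13.15, 13.77 and 15.41 FPKM in the controls, against 23.26, 24.45 and 21.13 FPKM in SMA. At day 7 the genotypes were separated in both fractions, and the SMA libraries of day 5 lay at the level of the day 7 controls.

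Cdkn1a rose in SMA in all 4 comparisons at an unadjusted p under 0.05, the threshold the study used for its differentially expressed genes, and passing it is meant by "called" here. The log2 fold change was 0.52 ± 0.14 (SE) in day 5 total RNA (limma, adjusted p = 0.55) and 1.00 ± 0.27 in day 5 polysomal RNA (adjusted p = 0.39). At day 7 it was 0.62 ± 0.11 in total RNA (adjusted p = 0.24) and 0.70 ± 0.09 in polysomal RNA (adjusted p = 0.15). As ratios these are 1.44, 2.00, 1.54 and 1.62. No single comparison passed adjustment over the 15247 genes. The smallest p that an exact two-sided permutation test of 1 gene allows is 0.333 at day 5 and 0.1 at day 7, neither under 0.05, and Cdkn1a reached it in each comparison. Leaving out 1 day 5 number left log2 fold changes between 0.38 and 0.66 in total RNA and between 0.70 and 1.29 in polysomal RNA, with 1 of 4 and 2 of 4 called. Without day 5 SMA replicate 1 they were 0.50 and 1.14, and without SMA replicate 2 they were 0.55 and 0.86, none of them called. The total library of SMA replicate 1 had the deviations most positively related to transcript length (Spearman's rho 0.40 across genes). In day 5 polysomal RNA rho was 0.235 for SMA replicate 1 and 0.290 for SMA replicate 2. Without control replicate 2 the total RNA value was 0.38 and was not called.

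At day 7 the SMA group held more males than the control group, so levels were also read within each sex, with no test, since the male controls and the female SMA brains were 1 each. In total RNA Cdkn1a was 1.34 times higher in SMA among males and 1.61 times higher among females, and in polysomal RNA 1.55 and 1.57 times higher. With sex as a covariate the day 7 log2 fold changes were 0.55 ± 0.08 (adjusted p = 0.32) and 0.64 ± 0.05 (adjusted p = 0.18), both called. Gencode M21 places a transcript still to be tested on the opposite strand over 273 of the 3553 exon bases of Cdkn1a. The library kit keeps the strand, but the methods give default settings for the software, and in TopHat and Cufflinks these ignore strand, so reads of the antisense transcript and of Cdkn1a may be mixed.

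The other genes of arrest and feedback did not pass the test between genotypes. Ccng1 (ENSMUSG00000020326.7, chromosome 11, 40748552 to 40755311) was at 27.52 and 25.66 FPKM in the controls, against 27.22 and 25.49 FPKM in SMA in day 5 total RNA, and its log2 fold changes in the 4 comparisons were between -0.07 and 0.10. Plk2 (ENSMUSG00000021701.7, chromosome 13, 110395044 to 110400844) ranged from 53.11 to 90.54 FPKM over the 20 libraries, and its log2 fold changes were between -0.12 and 0.19. Its genotypes overlapped in each comparison, and those of Ccng1 in all but day 5 polysomal RNA.

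Mdm2 (ENSMUSG00000020184.12, chromosome 10, 117688888 to 117710758), the negative regulator of p53, was at 22.38 and 22.71 FPKM in the controls, against 30.07 and 23.74 FPKM in SMA in day 5 total RNA. In day 5 polysomal RNA it was at 18.56 and 21.42 FPKM in the controls, against 22.31 and 23.02 FPKM in SMA. The genotypes did not overlap at day 5, and SMA replicate 1 stood highest in total RNA. The differences of 0.24 ± 0.14 and 0.18 ± 0.10 on the log2 scale did not pass the test (adjusted p = 0.56 and 0.48). At day 7 the genotypes overlapped, with differences of 0.05 ± 0.07 in total and 0.04 ± 0.11 in polysomal RNA.

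Eda2r (ENSMUSG00000034457.8, chromosome X, 97333840 to 97377216, minus strand) was the member with the largest fold change between genotypes in day 5 total RNA and in both day 7 comparisons, at a low level. In day 5 total RNA it was at 1.28 and 1.31 FPKM in the controls, against 3.23 and 1.87 FPKM in SMA. In day 5 polysomal RNA it was at 1.00 and 1.46 FPKM in the controls, against 2.41 and 2.44 FPKM in SMA. Every SMA library of day 5 was above every control, and SMA replicate 1, the female of its group, was the higher in total RNA and level with the male in polysomal RNA. In day 7 total RNA the levels were 0.42, 0.50 and 0.80 FPKM in the controls, against 2.02, 1.98 and 1.03 FPKM in SMA. In day 7 polysomal RNA they were 0.47, 0.47 and 0.65 FPKM in the controls, against 1.95, 2.13 and 1.21 FPKM in SMA. The genotypes again did not overlap, and SMA replicate 3, the female of its group, was lowest in both fractions, so the order of the sexes among SMA libraries at day 5 was not that of day 7.

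The log2 fold change of Eda2r was 0.88 ± 0.31 in day 5 total RNA (adjusted p = 0.55) and 0.95 ± 0.22 in day 5 polysomal RNA (adjusted p = 0.39). At day 7 it was 1.38 ± 0.34 in total RNA (adjusted p = 0.34) and 1.54 ± 0.24 in polysomal RNA (adjusted p = 0.18). Eda2r therefore rose in 3 of the 4 comparisons, and its day 5 total value missed the threshold. Its controls averaged 0.57 FPKM in day 7 total and 0.53 FPKM in day 7 polysomal RNA. Eda2r passed the filter of 1 FPKM, a mean over all libraries, only through its SMA libraries. Of the other settings that tested it, among them a filter at 0.1 FPKM and no filter, all 12 called it in day 5 polysomal RNA. All 13 called it in each day 7 comparison, and 5 of 12 in day 5 total RNA. Values are on the log2(FPKM + 0.1) scale, which understates changes of genes at this level, and a pseudocount of 1 FPKM brought the day 7 changes down to 0.75 and 0.84. Without day 5 SMA replicate 1 the day 5 total change was 0.50, and without day 5 SMA replicate 2 it was 1.26, both called. The day 5 polysomal change lost its call without either day 5 SMA number (0.96 and 0.94).

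Eda2r is X-linked and its day 7 level differed between the sexes within each genotype, so the genotypes were compared within sex. These groups held 1 control and 2 SMA males and 2 control and 1 SMA females, so each comparison within a sex, and each of the sexes within a genotype, has 1 library on one side and is given with no test. In total RNA the SMA level was 2.50 times the control level among males and 2.24 times among females, and in polysomal RNA 3.14 and 2.57 times. With sex as a covariate the day 7 log2 fold changes were 1.12 ± 0.09 in total and 1.36 ± 0.09 in polysomal RNA (adjusted p = 0.17 for both), and both were called.

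Trp53inp1 (ENSMUSG00000028211.9, chromosome 4, 11156431 to 11174379) rose in day 7 total RNA, from 9.45, 8.96 and 7.84 FPKM in control to 10.88, 10.52 and 9.89 FPKM in SMA, without overlap (log2 fold change 0.25 ± 0.09, adjusted p = 0.48). In day 7 polysomal RNA it was at 7.20, 7.70 and 8.97 FPKM in the controls, against 8.92, 9.39 and 8.47 FPKM in SMA, where the genotypes overlapped (0.17 ± 0.10, adjusted p = 0.60). At day 5 its differences were 0.32 ± 0.17, without overlap, and 0.33 ± 0.21, with overlap, and neither was called. With the correction for transcript length they were 0.19 and 0.24, again not called. The day 7 total call was kept in 2 of the 6 fits that each left out 1 number, and was lost with sex as a covariate (0.27 ± 0.10).

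Phlda3 (ENSMUSG00000041801.5, chromosome 1, 135766119 to 135769136) rose in day 7 polysomal RNA, from 7.45, 7.23 and 6.34 FPKM in control to 8.19, 9.59 and 9.89 FPKM in SMA (0.39 ± 0.11, adjusted p = 0.35). In day 7 total RNA the genotypes overlapped (0.25 ± 0.15, adjusted p = 0.64), and at day 5 the differences were 0.03 ± 0.28 and 0.02 ± 0.17. The day 7 polysomal call was kept in 4 of the 6 fits without 1 number and was lost with the replicate number as a block (0.39 ± 0.13, adjusted p = 0.54).

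Bax and Bbc3, the members that act directly at the mitochondrion, did not rise. Bax (ENSMUSG00000003873.10, chromosome 7, 45461695 to 45466898) was at 65.19 and 60.46 FPKM in the controls, against 42.77 and 56.34 FPKM in SMA in day 5 total RNA. In day 5 polysomal RNA it was at 71.20 and 58.17 FPKM in the controls, against 51.29 and 48.38 FPKM in SMA. The SMA libraries were below the controls at day 5 without overlap, with differences of -0.35 ± 0.17 and -0.37 ± 0.13 that did not pass the test (adjusted p = 0.55 and 0.40). Without SMA replicate 2 the total value was -0.55 and without control replicate 2 the polysomal value was -0.51, both called, while without SMA replicate 1 the total value was -0.16 and without control replicate 1 the polysomal value was -0.22. Among the 13 other settings Bax was called lower in 1 in total and 5 in polysomal RNA, and with the correction for transcript length the differences were -0.13 and -0.19, neither called. At day 7 the levels overlapped between 41.56 and 57.91 FPKM in all 12 libraries, with differences of 0.07 ± 0.10 and 0.05 ± 0.10. Gencode M21 has a further protein-coding gene on the same strand that shares 192 of the 1576 exon bases of Bax, so reads could be split between them.

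Bbc3 (ENSMUSG00000002083.10, chromosome 7, 16309616 to 16318205) was between 6.90 and 12.11 FPKM in all 20 libraries. Its differences were 0.10 ± 0.21 and -0.18 ± 0.12 at day 5 and 0.15 ± 0.09 and 0.11 ± 0.13 at day 7, in total and polysomal RNA, and none passed the test. Its SMA libraries lay below the controls without overlap in day 5 polysomal RNA.

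Trp53 (ENSMUSG00000059552.11, chromosome 11, 69580359 to 69591873) did not differ between genotypes beyond the spread in any of the 4 comparisons. In day 7 total RNA it was at 7.88, 7.0 and 10.66 FPKM in the controls, against 7.97, 10.11 and 8.09 FPKM in SMA. In day 7 polysomal RNA it was at 8.26, 7.71 and 9.20 FPKM in the controls, against 9.03, 10.41 and 9.09 FPKM in SMA. The genotypes overlapped in all 4 comparisons, with differences between -0.09 and 0.42, the latter in day 5 polysomal RNA with an SE of 0.30 (adjusted p = 0.54). p53 is controlled mainly through the stability of the protein, which was not measured. A processed pseudogene of Trp53 is listed at 0 FPKM in all 20 libraries.

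**Figure D2:**
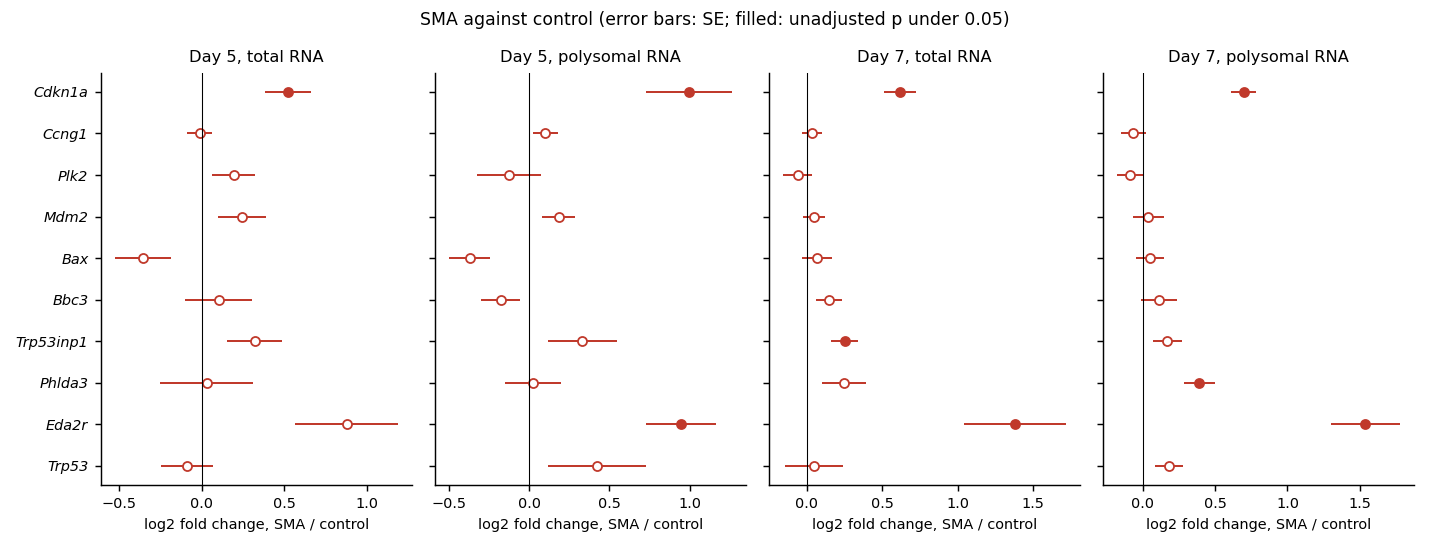
Log2 fold change of SMA against control on the x axis for each of the 10 genes, in 1 panel per stage and fraction, with SE bars and filled points for an unadjusted p under 0.05. Cdkn1a is filled in all 4 panels and Eda2r in 3, Trp53inp1 and Phlda3 in 1 each at day 7, and the other genes in none.

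Counted over the members, 1 of 10 rose in day 5 total RNA, 2 in day 5 polysomal RNA, 3 in day 7 total RNA and 3 in day 7 polysomal RNA, and none fell. Of all tested genes 8.25%, 12.5%, 9.54% and 10.7% passed the same threshold in these comparisons, and 4.36%, 5.65%, 4.84% and 5.35% passed it with a higher level in SMA. The median log2 fold change of the members was 0.15, 0.14, 0.11 and 0.14, beside a median over all genes of 0.01, -0.01, 0.00 and 0.00. Of the 4 genes of arrest and feedback 1 was called in each comparison, which was Cdkn1a throughout. Of the 5 genes of apoptosis and survival 0, 1, 2 and 2 were called. Cdkn1a and Eda2r, 2 of 10 members, had every SMA library above every control library in all 4 comparisons, and 178 of the 15247 genes, 1.17%, did so. The members are few and were chosen with such results known, so the shares are set side by side without a test.

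Averaging the SMA effect over both stages, a comparison added after the data were seen, used all 10 libraries of a fraction. Cdkn1a rose by 0.57 ± 0.09 in total RNA (adjusted p = 0.039) and by 0.85 ± 0.13 in polysomal RNA (adjusted p = 0.020), in both cases past adjustment over all genes. Eda2r rose by 1.13 ± 0.26 in total RNA (adjusted p = 0.12) and by 1.24 ± 0.19 in polysomal RNA (adjusted p = 0.021). It passed the filter of 1 FPKM only through its SMA libraries. With a filter at 0.1 FPKM or none, its polysomal value still passed adjustment. Trp53inp1 rose in total RNA by 0.29 ± 0.09 (adjusted p = 0.19). At an unadjusted p under 0.05 there were 3 of 10 members in total and 2 of 10 in polysomal RNA, beside 16.3% and 20.8% of all genes, and after adjustment 1 and 2 members, beside 0.866% and 1.84% of all genes. With sex as a covariate the adjusted p of Cdkn1a was 0.045 in total and 0.024 in polysomal RNA, and that of Eda2r in polysomal RNA was 0.012. This covariate also brought a call in polysomal RNA to Trp53inp1 (0.27 ± 0.09, adjusted p = 0.21) and Trp53 (0.32 ± 0.13, adjusted p = 0.25). Without it they were at 0.25 ± 0.11 and 0.30 ± 0.14 and were not called. Over all alternatives the adjusted p of Cdkn1a lay between 0.015 and 0.12 in total and between 0.00023 and 0.086 in polysomal RNA, and that of Eda2r in polysomal RNA between 0.0069 and 0.084. In the 10 fits that each left out 1 number these values passed adjustment in 2, 5 and 4, while in the 13, 13 and 12 other settings all did. Without day 5 SMA replicate 2 or day 7 control replicate 3 Cdkn1a kept it in total RNA. In polysomal RNA both genes lost it without day 5 SMA replicate 2 and without replicate 1 or 2 of either day 7 group, and Eda2r also without day 5 control replicate 1.

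Whether the members were translated differently in SMA was asked by the change in translation efficiency (TE), the genotype difference in polysomal RNA minus that in total RNA on the log2 scale. No member was called at either stage by limma, beside 2.32% of all genes at day 5 and 2.07% at day 7. For Cdkn1a the change in TE was 0.48 ± 0.32 at day 5 and 0.08 ± 0.14 at day 7. For Eda2r it was 0.07 ± 0.41 and 0.16 ± 0.44, and for Trp53 0.51 ± 0.35 and 0.13 ± 0.22. Without day 5 control replicate 2 the Cdkn1a value was 0.91 ± 0.23 and was called, and without day 5 control replicate 1 it was 0.04 ± 0.23 and was not, so the day 5 value moved with which control was kept.

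The fractions themselves set Ccng1 apart. In controls it was at 27.52 and 25.66 FPKM in total and 16.57 and 17.39 FPKM in polysomal RNA at day 5, and at 30.21, 29.32 and 27.95 FPKM in total and 17.61, 21.87 and 19.40 FPKM in polysomal RNA at day 7. In SMA it was at 27.22 and 25.49 against 18.63 and 17.83 FPKM at day 5, and at 32.37, 28.29 and 29.13 against 19.05, 18.27 and 18.63 FPKM at day 7. Polysomal levels were below total levels without overlap in both genotypes at both stages. The log2 ratio of polysomal to total RNA was -0.64 ± 0.07 and -0.57 ± 0.08 in controls (adjusted p = 0.017 and 0.0016) and -0.53 ± 0.07 and -0.68 ± 0.08 in SMA (adjusted p = 0.055 and 0.00058).

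Trp53 was also lower in polysomal than in total RNA in day 5 controls, at 2.88 and 4.36 against 5.53 and 5.96 FPKM (-0.68 ± 0.25, adjusted p = 0.16). This call was lost with quantile normalization (-0.52), with the replicate number as a block (-0.68 ± 0.25, adjusted p = 0.23) and in all 4 fits without 1 day 5 number (-0.92 to -0.44). In day 5 SMA it was at 4.12 and 5.57 against 5.94 and 4.89 FPKM, where the fractions overlapped (-0.17 ± 0.25). At day 7 the ratio was 0.00 ± 0.16 in controls. Trp53inp1 was lower in the polysomal RNA of day 7 SMA brains (-0.22 ± 0.09, adjusted p = 0.15), and no other member was called. At day 7 the deviations of total and polysomal libraries with the same number were correlated, and with the number as a block Trp53inp1 lost its call (adjusted p = 0.22) and Ccng1 kept it (adjusted p = 0.0093 in controls and 0.0061 in SMA). The block called 35.9% of all genes in controls and 37.9% in SMA, and added Plk2, higher in polysomal RNA by 0.11 ± 0.02 in day 7 controls (adjusted p = 0.022) and 0.08 ± 0.02 in day 7 SMA (adjusted p = 0.042). Plk2 was at 66.62, 59.85 and 54.90 FPKM in total and 71.21, 66.12 and 58.76 FPKM in polysomal RNA of the day 7 controls, and in all 10 numbers of the study its polysomal library was above the total library. Without the block, 2 of 10 members were called between fractions in day 5 controls, 1 in day 7 controls, 1 in day 5 SMA and 2 in day 7 SMA, all lower in polysomal RNA, beside 27.7%, 28.7%, 17.7% and 30.2% of all genes in either direction.

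**Figure D3:**
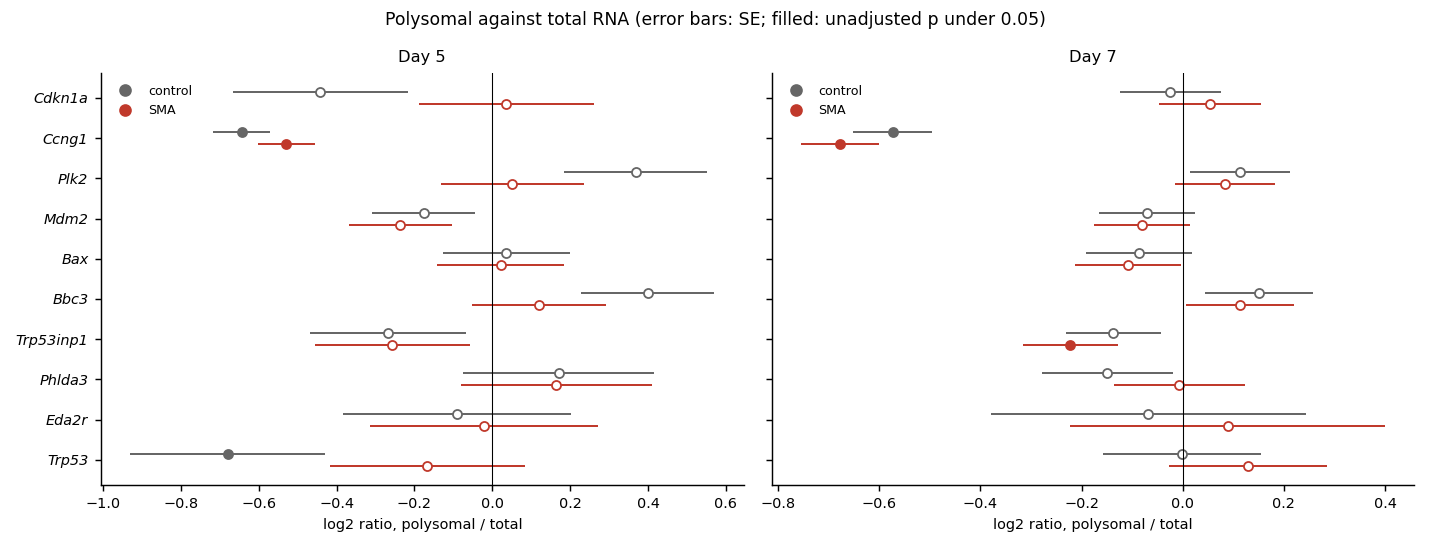
Log2 ratio of polysomal to total RNA on the x axis for each of the 10 genes at day 5 (left) and day 7 (right), control in grey and SMA in red, with SE bars and filled points for an unadjusted p under 0.05. Ccng1 lies between -0.68 and -0.53 in both genotypes at both stages, while the other genes lie nearer 0 except Trp53 in day 5 controls at -0.68.

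Between day 5 and day 7 the members moved in different directions in controls. Cdkn1a rose with age by 0.54 ± 0.12 in total RNA (adjusted p = 0.021) and 0.96 ± 0.18 in polysomal RNA (adjusted p = 0.0067), and Trp53 by 0.54 ± 0.19 (adjusted p = 0.084) and 1.22 ± 0.20 (adjusted p = 0.0044). Eda2r fell by 1.09 in total (SE 0.37, adjusted p = 0.073) and 1.07 in polysomal RNA (SE 0.26, adjusted p = 0.018), from at least 1.00 FPKM in each day 5 control to at most 0.80 FPKM in each day 7 control. Among the remaining genes of cell death and survival, Bax fell by 0.42, Bbc3 by 0.53 and Phlda3 by 0.38 in polysomal RNA, where Ccng1 rose by 0.20, and in total RNA Mdm2 fell by 0.27. Of the 10 fits that each left out 1 number, Ccng1 was called in 1 (0.12 to 0.28 over the 10), and it was called in 5 of 12 other settings. Phlda3 was called in 8, and was lost without day 5 control replicate 1 (-0.19) and without day 7 control replicate 3 (-0.31). Bax was called in 9, and was lost without day 5 control replicate 1 (-0.28), and Bbc3 in all 10. In total RNA Eda2r was called in 6, Trp53 in 7 and Mdm2 in 5, and all 3 lost the call without either day 5 control. Cdkn1a was called in all 10 in both fractions, and Eda2r and Trp53 in all 10 in polysomal RNA. All 5 genes of apoptosis and survival had a lower mean at day 7 in both fractions, and 1 of the 5 was called in total and 4 in polysomal RNA. Over all members 4 of 10 were called in total and 7 in polysomal RNA, beside 37.8% and 49.5% of all genes, so calls with age were common in the table as a whole. Both day 5 controls were male and 2 of the 3 day 7 controls were female, so age and sex were partly mixed in this comparison.

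In SMA brains Cdkn1a rose between day 5 and day 7 by 0.64 ± 0.12 in total and 0.66 ± 0.18 in polysomal RNA, and Trp53 by 0.68 ± 0.19 and 0.97 ± 0.20 (adjusted p = 0.011, 0.035, 0.038 and 0.015). Mdm2 fell by 0.47 (SE 0.11, adjusted p = 0.019) and by 0.31 (SE 0.12, adjusted p = 0.085). Eda2r had differences of -0.58 ± 0.37 and -0.48 ± 0.26, which did not pass the test. In total 5 of 10 members were called in total RNA and 3 in polysomal RNA, beside 41.6% and 40.3% of all genes. A change in the genotype effect between stages was called for none of the 10 members in total RNA, beside 10.1% of all genes, and for 1, Bax, in polysomal RNA (0.42 ± 0.17, adjusted p = 0.36), beside 13.7%. For Cdkn1a it was 0.10 ± 0.17 and -0.30 ± 0.25, and for Eda2r 0.51 ± 0.52 and 0.59 ± 0.37. These values moved with single numbers, from -0.04 to 0.24 and from -0.60 to -0.01 for Cdkn1a and from 0.13 to 0.89 and from 0.34 to 0.85 for Eda2r. In polysomal RNA Cdkn1a was called without day 5 control replicate 2 (-0.60) and Eda2r without day 7 SMA replicate 3 (0.83).

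**Figure D4:**
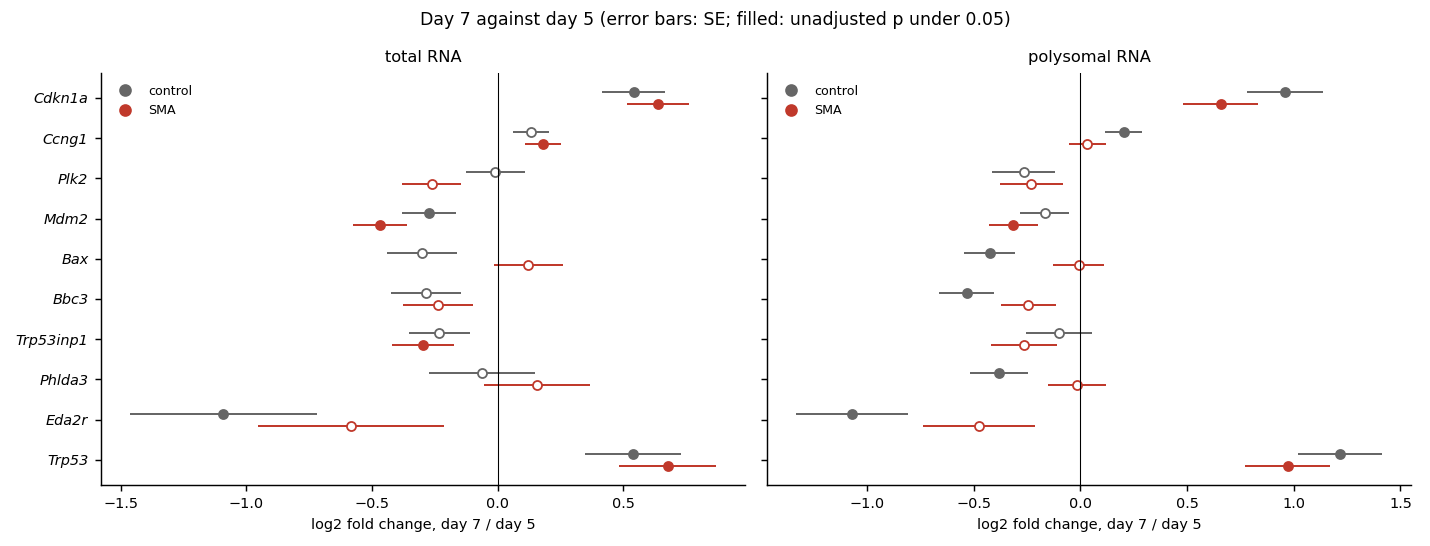
Log2 fold change of day 7 against day 5 on the x axis for each of the 10 genes in total (left) and polysomal RNA (right), control in grey and SMA in red, with SE bars and filled points for an unadjusted p under 0.05. Cdkn1a and Trp53 lie to the right of 0 in both genotypes and fractions, and Eda2r lies to the left.

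Cdkn1a was set beside all tested genes by the correlation of log2(FPKM + 0.1) over the 20 libraries, which share stages, fractions and replicate numbers. The genes most like it were Lrrc58 (r = 0.942), Kcnn2 (0.919), Btbd3 (0.917), Hepacam (0.917) and Lrrc8a (0.913). Hepacam encodes an adhesion molecule of glia, Kcnn2 a calcium-activated potassium channel and Lrrc8a a subunit of the volume-regulated anion channel. Among the members Trp53 had r = 0.80 with Cdkn1a, while Plk2 had -0.59, Bax -0.51, Mdm2 -0.24 and Eda2r 0.25. The levels of Cdkn1a and Trp53 both increased from day 5 to day 7 in each fraction.

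A list of 30 other p53 targets was read in the same way, and 24 of them were tested. In day 5 total RNA 2 rose and none fell, in day 5 polysomal RNA 3 rose and 2 fell, in day 7 total RNA 5 rose and 1 fell, and in day 7 polysomal RNA 5 rose and none fell. These are 2, 5, 6 and 5 calls of 24, beside the 8.25%, 12.5%, 9.54% and 10.7% of all genes called, so the day 5 total count was near the share of all genes. The median log2 fold change of the 24 was 0.12, 0.03, 0.01 and 0.02, close to that of all genes at day 7. Pmaip1, which encodes the BH3-only protein NOXA, rose in all 4 comparisons, by 0.94 ± 0.15, 1.02 ± 0.28, 0.58 ± 0.14 and 0.50 ± 0.15 (adjusted p between 0.33 and 0.55). Ephx1, an epoxide hydrolase, and Dcxr, a carbonyl reductase, rose in 3 of the 4, Ephx1 by 0.62 ± 0.20, 0.57 ± 0.09 and 0.49 ± 0.14 and Dcxr by 0.52 ± 0.12, 0.69 ± 0.16 and 0.66 ± 0.12. Perp, a membrane protein of desmosomes, and Sesn2, a stress-induced regulator of mTORC1, rose at day 7, Perp by 0.34 ± 0.10 and 0.43 ± 0.09. Rrm2b, a ribonucleotide reductase subunit, rose by 0.53 ± 0.16 in day 5 total RNA. Gadd45a and Ckap2, the latter a mitotic spindle protein, fell in day 5 polysomal RNA, Ckap2 by 0.58 (SE 0.14), and Aen, an exonuclease, fell by 0.13 (SE 0.05) in day 7 total RNA. Sesn2, Gadd45a and Aen fell outside the rule for named genes and were named after their values were seen, as was the endothelial gene Ly6c1. Fas, Gdf15, Pidd1, Sfn, Tnfrsf10b and Trp53cor1 were below a mean of 1 FPKM and were not tested.

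Of 22 regulators and relatives of p53, 18 were tested, and 2, 2, 1 and 2 of them were called in the 4 comparisons, counts near the shares of all genes (8.25%, 12.5%, 9.54% and 10.7%). Their median log2 fold changes were 0.15, 0.23, 0.02 and 0.03. The genotypes differed at day 5 in how the deviations of their libraries related to transcript length. Spearman's rho was -0.39 and -0.23 in control against 0.40 and -0.02 in SMA total RNA. In polysomal RNA it was -0.23 and -0.19 against 0.235 and 0.290. The values of this list are without the correction for transcript length. Crebbp, an acetyltransferase, and Trp53bp1, a DNA damage adaptor, rose in day 5 total RNA, by 0.27 ± 0.09 and 0.46 ± 0.13. Trp53bp1 (0.43 ± 0.10) and Usp7 (0.33 ± 0.09), a deubiquitinase of MDM2 and p53, rose in day 5 polysomal RNA, whereas Usp7 fell by 0.34 (SE 0.08) in day 7 total RNA and Atr, a checkpoint kinase, by 0.42 (SE 0.15) in day 7 polysomal RNA. Mdm4, the MDM2 relative that inhibits p53, was at 23.38, 24.08 and 21.65 FPKM in the controls, against 18.98, 19.18 and 19.26 FPKM in SMA in day 7 polysomal RNA and fell without overlap (-0.26 ± 0.05, adjusted p = 0.23). In day 7 total RNA Mdm4 overlapped between genotypes (-0.09 ± 0.07), and in day 5 SMA it was at 52.32 and 35.29 FPKM in total RNA against 32.11 and 35.43 FPKM in control (0.35 ± 0.23, not called). In day 5 polysomal RNA Mdm4 was at 36.40 and 30.57 FPKM in SMA against 24.89 and 28.73 FPKM in control, higher without overlap but not called (0.32 ± 0.14, adjusted p = 0.43). Ppm1d, a phosphatase that is both a target and an inhibitor of p53, stayed between 5.65 and 8.16 FPKM and was not called. The relatives Trp63, at 0.06 to 0.25 FPKM, and Trp73, at 0.45 to 0.97 FPKM, were below the level tested.

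p21 inhibits the kinases that drive the cell cycle, so genes of the cell cycle were read beside Cdkn1a. Most act in proliferation, but the list also holds Cdkn1b and Cdkn1c, which encode inhibitors of such kinases, as Cdkn1a does. Both enter the counts, medians and sums, Cdkn1b at a mean of 20.6 FPKM, and both had negative log2 fold changes at day 5, as did all 30 genes. Of 30 cell cycle genes, all tested, 13 fell in day 5 total RNA, 22 in day 5 polysomal RNA, 5 in day 7 total RNA and none in day 7 polysomal RNA, and none rose. Of all genes 3.89%, 6.82%, 4.7% and 5.38% were called lower in these comparisons. Their median log2 fold changes were -0.61, -0.69, -0.34 and -0.46. Cdk1, the mitotic kinase, fell from a mean of 27.5 to 8.71 FPKM in day 5 polysomal RNA (-1.65 ± 0.09, adjusted p = 0.030) and by 1.16 (SE 0.29) in total RNA. In the same comparisons the survivin gene Birc5 fell by 1.02 (SE 0.28) in day 5 total RNA and the spindle checkpoint kinase Bub1 by 1.04 (SE 0.20) in day 5 polysomal RNA. At day 7 Plk1 fell by 0.78 (SE 0.24) and Ccnb2 by 0.84 (SE 0.32) in total RNA. The most abundant gene of the list was Pcna, at a mean of 37.4 FPKM. The summed level of the 30 genes was 228 and 287 FPKM in the control and 165 and 184 FPKM in the SMA libraries of day 5 total RNA, and at day 7 it was 140, 156 and 204 FPKM in the controls, against 136, 160 and 110 FPKM in SMA. The sums were separate at day 5 and overlapped at day 7, whereas Cdkn1a was separate at both. In RNA of whole tissue, fewer cells of a type and less RNA per cell cannot be told apart.

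**Figure D5:**
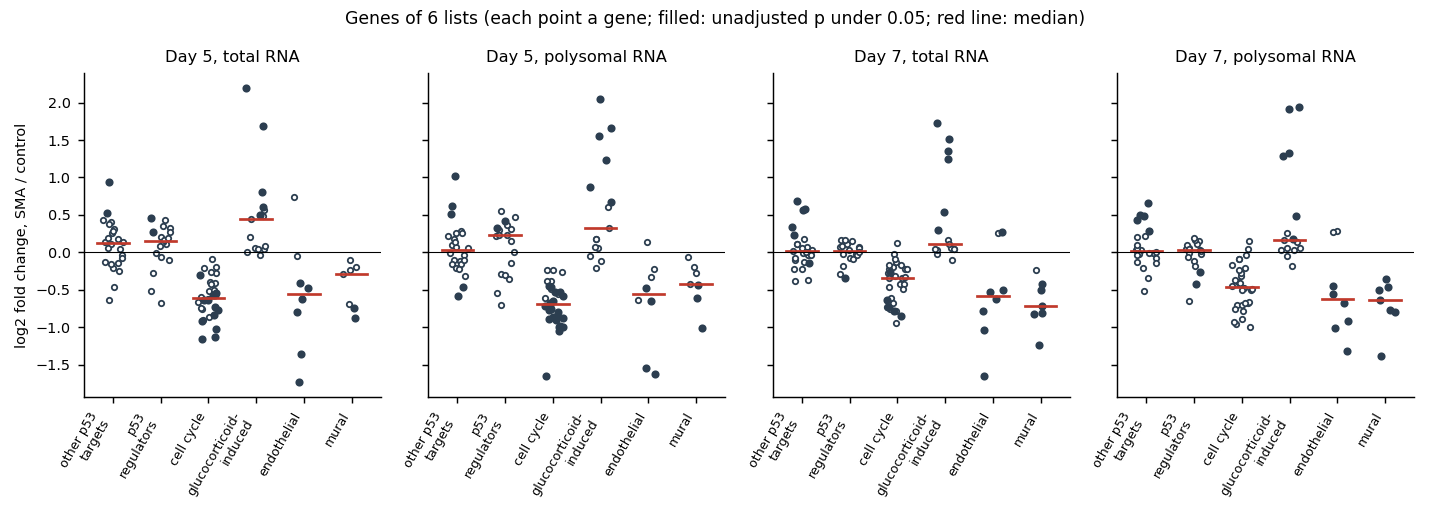
Log2 fold change of SMA against control on the y axis for the genes of 6 lists, 1 panel per stage and fraction, each point a gene, filled for an unadjusted p under 0.05, with the median as a red line. The cell cycle medians lie between -0.69 and -0.34 and the endothelial and mural medians below 0 in each panel, while those of other p53 targets lie between 0.01 and 0.12.

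Cdkn1a also responds to stimuli other than p53, among them glucocorticoids, and genes induced by these hormones differed between the same libraries. Of 15 such genes 5, 6, 6 and 6 rose in the 4 comparisons and none fell, beside 4.36%, 5.65%, 4.84% and 5.35% of all genes called higher, with medians of 0.44, 0.33, 0.12 and 0.16. Fam107a rose by 2.19 ± 0.13 and 2.05 ± 0.56 at day 5 and 1.73 ± 0.22 and 1.94 ± 0.34 at day 7, and Sult1a1 by 1.69 ± 0.32, 1.66 ± 0.17, 1.51 ± 0.13 and 1.91 ± 0.15. Mt1, a metallothionein and the most abundant gene of the list at a mean of 168 FPKM, rose by 1.24 ± 0.08 in day 7 total RNA (adjusted p = 0.020). The summed level of the 15 genes was 366, 347 and 338 FPKM in day 7 control total RNA and 650, 655 and 624 FPKM in SMA. In day 5 total RNA it was 228 and 216 FPKM in the controls, against 219 and 398 FPKM in SMA, so the sums overlapped there. In day 5 polysomal RNA it was 202 and 225 FPKM in the controls, against 286 and 386 FPKM in SMA, without overlap. Such sums weigh abundant genes most. Mt2, another metallothionein, came next to Mt1 at a mean of 73.2 FPKM, so the sums say less about the other genes than the medians do. The part of these hormones in the change of Cdkn1a was not tested.

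Markers of some cell types moved with genotype in the same libraries, and their counts of calls stand beside 8.25%, 12.5%, 9.54% and 10.7% of all genes called in the 4 comparisons. All 8 endothelial markers were tested, and 6, 4, 6 and 6 fell while 1 rose, Ly6c1 in day 7 total RNA. Cldn5, a tight junction protein and the most abundant at a mean of 33.2 FPKM, fell by 1.36 (SE 0.12), 1.62 (SE 0.36), 1.03 (SE 0.11) and 1.01 (SE 0.12), and Tek, the angiopoietin receptor, by 1.74, 1.54, 1.65 and 1.31. The endothelial sum in day 7 total RNA was 57.8, 65.2 and 72.2 FPKM in the controls, against 44.3, 45.9 and 41.4 FPKM in SMA, without overlap. Of 7 markers of pericytes and smooth muscle 2, 3, 6 and 7 fell. Rgs5, the most abundant of them, fell by 0.88 (SE 0.09), 1.01 (SE 0.09), 1.23 (SE 0.09) and 1.39 (SE 0.12). Their sum in day 7 total RNA was 56.5, 57.9 and 61.2 FPKM in the controls, against 25.6, 35.9 and 29.5 FPKM in SMA.

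Among the glia, 2, 0, 1 and 1 of 6 astrocyte markers rose in the 4 comparisons and none fell, with 5, 4, 5 and 5 of the 6 at a higher mean in SMA. At 0 and 1 of 6, the last 3 counts are near the shares of all genes. Slc1a2, a glutamate transporter, rose by 0.66 ± 0.12 in day 5 total RNA. Aldoc, the most abundant marker of the list and alone in being called at day 7, rose by 0.51 ± 0.15 in day 5 total RNA and by 0.77 ± 0.10 and 0.79 ± 0.09 at day 7. Astrocyte sums in day 7 total RNA were 500, 554 and 501 FPKM in the controls, against 738, 638 and 584 FPKM in SMA. Of 7 microglial markers C1qa, the most abundant, and C1qb rose at day 7, by 0.62 ± 0.13 and 0.71 ± 0.17 in total RNA, and Aif1 rose by 0.29 ± 0.10 in day 7 total RNA, while P2ry12 fell in 3 of the 4 comparisons, by 0.56 (SE 0.14) in day 5 total RNA. None of the 6 oligodendrocyte markers was called in any comparison, although 5 of 6 had a lower mean in SMA in both day 5 comparisons (medians -0.08 and -0.20) and all 6 a higher mean in both at day 7 (medians 0.28 and 0.32). Mbp was the most abundant at a mean of 143 FPKM. Of 5 markers of oligodendrocyte precursors, Olig1 was the most abundant at a mean of 31.6 FPKM, 2 rose in day 5 total RNA (Pdgfra and Cspg4) and 1 fell in day 5 polysomal RNA (Olig2).

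The 6 neuronal markers, apart from Tubb3, were above 0 FPKM in every library. Stmn2 was the most abundant, at a mean of 1176 FPKM. In total RNA 2 of the 6 had a higher and 4 a lower mean in SMA at each stage, with medians of -0.11 and -0.08, and Map2 alone was called, rising by 0.37 ± 0.09 and 0.11 ± 0.04 at day 5 and day 7. In polysomal RNA 5 were higher at day 5, where Tubb3 alone was called, and 3 at day 7, where none was, with medians of 0.30 and 0.01. Tubb3 is listed at 0 FPKM in both day 5 control polysomal libraries, so no fold change is given. Of 5 choroid plexus markers 4 were tested, and all 4 rose in both day 7 comparisons, with Ttr, the most abundant, higher by 0.88 ± 0.10 and 0.91 ± 0.15. In day 5 total RNA the choroid plexus sum was 770 and 726 FPKM in the controls, against 412 and 801 FPKM in SMA. In day 5 polysomal RNA it was 1007 and 982 FPKM against 938 and 1064 FPKM, so the genotypes overlapped in both fractions. Of 7 neutrophil markers 5, among them Elane, Mpo and Camp, were below a mean of 1 FPKM. The 2 tested, S100a8 and S100a9, had higher means in SMA in all 4 comparisons without overlap, and 1 of them was called in each. S100a8 rose by 1.79 ± 0.12 and 1.20 ± 0.26 at day 5 and by 2.48 ± 0.94 in day 7 total RNA, and S100a9 by 2.07 ± 0.69 in day 7 polysomal RNA. The neutrophil sum in day 5 total RNA was 2.38 and 2.32 FPKM in the controls, against 5.59 and 7.28 FPKM in SMA, and in day 5 polysomal RNA 3.69 and 3.29 against 6.19 and 9.30 FPKM. The neutrophil sum was highest in day 7 SMA replicate 1, at 40.7 FPKM in total and 51.9 FPKM in polysomal RNA, and at most 11.5 FPKM in every other library. Of 6 erythroid markers tested of 7, with Hba-a1 the most abundant at a mean of 1330 FPKM, 1 fell in day 5 total and 1 in day 7 polysomal RNA. The part of these cell types in the changes of Cdkn1a, Eda2r, Trp53inp1 and Phlda3 was not tested.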

How the data were processed

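The authors sequenced stranded total RNA libraries and, per the methods and the submitters' processing notes, aligned reads with TopHat2 2.0.14 to GRCm38.p4 and computed FPKM with Cufflinks 2.2.1. The deposited table holds FPKM with 2 decimals for 45700 genes in 20 libraries. Reads and the depth of each library could not be recovered from it, so no counting interval is given. Here, log2(FPKM + 0.1) was tested with limma 3.58.1 (R 4.3.3, lmFit and eBayes with a trend) over 15247 genes, those averaging 1 FPKM or more across the libraries. SMA and control were compared in a fit of those 2 groups, fractions and TE in 1 fit per stage, and age, genotype by stage and the mean over stages in 1 fit per fraction. A call is an unadjusted p under 0.05, as in the study, with Benjamini-Hochberg adjusted values beside it. The study's own tests work on reads and were not used here. The code was tested on simulated data. Deviations of total and polysomal libraries with the same number correlated between 0.16 and 0.45 in all 6 day 7 pairs, so the number was also used as a block there. At day 5, with 2 libraries per group, both numbers of a genotype give the same correlation by construction. It was 0.095 in controls and 0.21 in SMA, and pairing had been set to need more than 0.1 in each. Both libraries of a number had the same sex in 10 of 10, but the sources do not say that they came from 1 brain. No 2 libraries held identical values, and the labels call the samples biological replicates.

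Members, gene lists and tests were chosen with earlier results of these data known. Genes named from the lists were, per comparison, up to 4 with the largest change among those called without overlap of the genotypes, and the most abundant gene of each cell type list. Mdm4, Ppm1d, Trp63, Trp73 and Smn1 were always named. The 5 genes with the highest Pearson r with Cdkn1a were also named. Alternatives were other pseudocounts, filters, normalizations, forms of the model, a correction for transcript length, the replicate number as a block and leaving out each number.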

Additional observations from a re-analysis of the deposited data

Results flagged for a closer look

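Bax was the member whose genotype effect differed between the stages by the test of that difference, in polysomal RNA only. Its mean level was 64.7 FPKM in day 5 controls and 48.2 FPKM in day 7 controls, and 49.8 and 49.6 FPKM in SMA at these ages. The change in the log2 genotype effect from day 5 to day 7 was 0.42 (SE 0.17, limma, adjusted p = 0.36), which passed the unadjusted threshold. In total RNA it was 0.42 (SE 0.20) and did not pass it. With sex as a covariate the polysomal value was 0.41 (SE 0.20) and did not pass it, nor did those with the correction for transcript length (0.21) or quantile normalization (0.33), while 10 of the 13 settings that kept all libraries passed. Leaving out 1 number gave 0.27 to 0.56, and 2 of these 10 fits passed, those without day 5 control replicate 2 and without day 7 control replicate 1. Both day 5 controls were male, and the day 5 controls had the most negative relation of their deviations with transcript length, with Spearman's rho across genes of -0.39 and -0.23 in total RNA and -0.23 and -0.19 in polysomal RNA.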

How the results depend on the processing

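Depth could not be recovered from the deposited values, groups held 2 or 3 libraries, and calls rest on unadjusted p-values. Of 2806 alternative values of single members, 2553 kept their direction and side of the threshold, 68 lost a call, 69 gained one, and 116 changed sign, where neither the value nor its alternative was called. Where a left-out number leaves 1 library in an arm, that library is assumed to vary like the other group.

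At an adjusted p under 0.05 the number of members called between genotypes was 0 in all 4 comparisons, beside 0.164%, 0.649%, 0.111% and 0.0918% of all genes. It was 1 between fractions in day 5 controls (2.82% of all genes), 1 and 5 with age in control total and polysomal RNA (23.1% and 39.7%), 0 for genotype by stage in polysomal RNA (0.597%) and 1 for the mean over stages in total RNA (0.866%). One model over all libraries called 3 members in day 5 total RNA (19.8% of all genes), 4 in day 5 polysomal RNA (25%), 5 between fractions in day 5 controls (36.7%), 1 for genotype by stage in total RNA (11.8%) and 4 for the polysomal mean over stages (22.4%). In day 5 total RNA, 2 were called with genes above 0 in every library, equal medians, robust eBayes or the transcript length correction, beside 10.2%, 8.34%, 8.62% and 7.56%. A filter at 5 FPKM, which Eda2r does not pass, called 1 in day 5 polysomal RNA (12.4%) and 1 for the polysomal mean over stages (22%), where 4 were called with genes above 0 in every library, robust eBayes or sex as a covariate (21.5%, 20.5% and 19.8%). Quantile normalization called 1 between fractions in day 5 controls (26.9%). For genotype by stage in polysomal RNA quantile normalization, the length correction and sex as a covariate called 0 (13.9%, 9.08% and 10.2%).

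Leaving out 1 number gave 0 to 3 calls of members between genotypes in day 5 total RNA, where the share of all genes called ran from 2.63% without control replicate 2 to 28.3% without SMA replicate 2. It gave 0 to 3 in day 5 polysomal RNA, with shares from 5.19% without SMA replicate 2 to 19.8% without control replicate 2. At day 7 it gave 2 to 3 in total RNA (6.72% to 11.2% of all genes) and 2 to 4 in polysomal RNA (7.25% to 13.5%). It gave 0 to 1 for TE at day 5 (1.97% to 6.24%), 0 at day 7 (1.81% to 4.74%), 1 to 2 between fractions in day 5 controls (7.69% to 26.2%) and day 7 controls (21.6% to 28.1%), and 2 to 6 and 4 to 7 with age in control total and polysomal RNA (26.5% to 42% and 36.5% to 48.4%). For genotype by stage it gave 0 to 2 in total and 0 to 3 in polysomal RNA (5.22% to 27.7% and 7.87% to 24.4%), and for the means over stages 2 to 5 in each fraction (11.6% to 28.8% and 13% to 27.5%).

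The replicate numbers were not established as pairs between genotypes. Deviations of SMA and control libraries with the same number correlated between -0.14 and 0.10 over 14335 genes. With the number as a block, 1, 3, 3 and 2 members were called between genotypes (4.77%, 13.2%, 8.6% and 9.37% of all genes), where Bax fell in day 5 polysomal RNA (-0.37) and Phlda3 lost its day 7 call, and 2 between fractions in day 7 controls. Between fractions at day 5, where the pairing was not established, the block added Plk2 (0.37) and Trp53 lost its call in controls at an unchanged -0.68. Over all genes, the block gave 728 calls in day 5 total RNA in place of 1258, and 659 for TE at day 7 in place of 315. One model over all libraries gave 3013 and 3814 in day 5 total and polysomal RNA, the latter in place of 1902, and with no filter 2907, 3539, 2295 and 2546 genes of 34288 were called between genotypes.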
